A study of Drosophila melanogaster with 2 samples.

Results

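The genes described here encode the proteins of the small (40S) subunit of the cytoplasmic ribosome of Drosophila melanogaster. They were taken by name: every protein-coding gene whose symbol is RpS followed by a number, plus sta, which encodes the protein known elsewhere as RpSA. This gave 39 of the 13968 protein-coding genes on the 7 chromosomes used. The rule itself uses no measured value, but the set was chosen with earlier results of these data known. The measurement was chromatin immunoprecipitation with sequencing (ChIP-seq), which finds where a protein sits on the genome. The protein was CG1024, expressed as a fusion to enhanced green fluorescent protein (eGFP) in the transgenic strain CG1024-GFP and precipitated, per the sample descriptions, with an antibody against GFP. The antibody field of the labels itself reads CG1024. The material was whole embryos of 0 to 24 h, so all embryonic tissues and ages were mixed. Sonication gave chromatin fragments of 200 to 800 bp. There was 1 group with 2 biological replicates of the same strain. No list from untagged embryos was analysed here, and the design holds no second condition, so the values below are descriptions without p-values.

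A ribosomal small subunit binds the messenger RNA and holds the centre where codons are read. Its proteins fold onto the 18S rRNA in a head, which carries the beak, and a body with a platform, and the messenger threads between them. Each protein is needed in about equal amount, and in flies the loss of a copy of many of these genes gives the Minute phenotype of slow development and short, thin bristles. Their promoters are known for a pyrimidine-rich initiator, the TCT motif, at the transcription start site. Many housekeeping promoters of the fly also carry the DNA replication-related element TATCGATA, a sequence bound by the transcription factor Dref and by the insulator protein BEAF-32.

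A gene was scored as having a promoter summit when the highest point of a peak was at most 500 bp from any transcription start annotated for it. The main list was the authors' conservative list for both replicates together, thresholded on the irreproducible discovery rate (IDR), a measure of how well the rank of a peak is repeated between replicates. It held 3397 peaks on the chromosomes used. In this list 20 of the 39 small-subunit genes had a promoter summit (51.3%, 95% Wilson interval 36.2 to 66.1), where 1975 of all 13968 protein-coding genes did (14.1%, 13.6 to 14.7). Intervals cover counting of genes only. In the authors' other, larger series-level list the number was 21 (53.8%) against 16.2% of all genes. The replicate lists gave 19 members each. In replicate 1 these were 48.7% of the members, with 11.4% of all genes, and in replicate 2 again 48.7%, with 10.5% of all genes. The same 19 genes stood in both replicate lists, which held 8.0% of all protein-coding genes in common. The 20th gene, RpS24, was in neither.

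Other ribosomal protein genes gave values on either side of these. Of the 54 genes for the large cytoplasmic subunit, 39 had a conservative summit (72.2%, Wilson interval 59.1 to 82.4), and of the 26 genes for the mitochondrial small subunit 8 did (30.8%, 16.5 to 50). The interval of the small cytoplasmic subunit overlapped both. Counted only where each replicate's own list held a summit, the shares of the cytoplasmic subunits lay closer, with 28 large-subunit genes (51.9%, 38.9 to 64.6) beside 19 small-subunit genes (48.7%, 33.9 to 63.8). These differences were not tested.

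**Figure D1:**
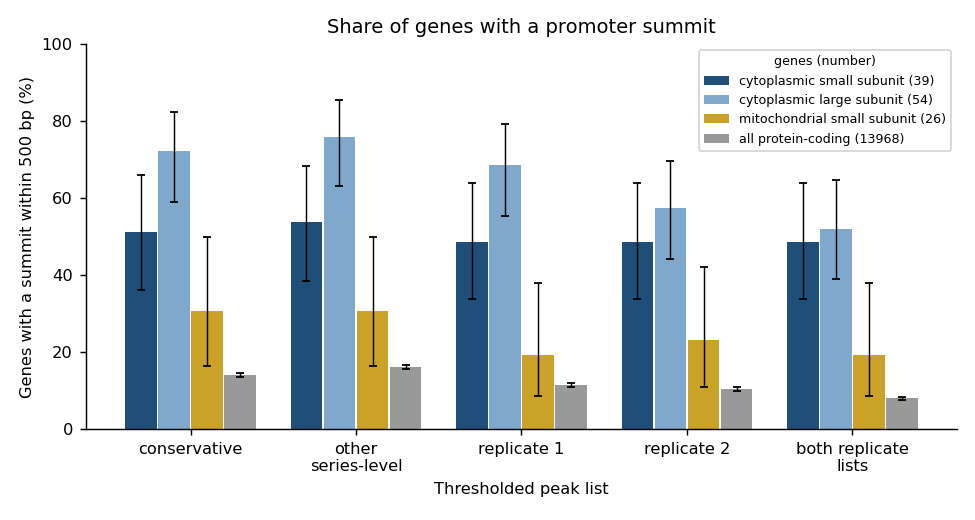
Share of genes (vertical axis, percent) with a peak summit within 500 bp of a start site in each thresholded list (horizontal axis), for 4 gene groups; bars are shares and error bars 95% Wilson intervals. The small-subunit bars stay between 48.7% and 53.8% over the lists, while the large-subunit bars range from 51.9% to 75.9%.

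The strongest small-subunit peak was at RpS3A (FBgn0017545), which encodes a protein of the platform near the exit of the messenger. It had a signal of 617 in replicate 1, 602 in replicate 2 and 1223 in the list of both replicates together, where it ranked 10 among all peaks. Signal is the authors' own peak caller value, without a stated scale. It is compared between genes only within a list, and the replicates' values are set side by side. The peak covered chr4:67162-67454 of build dm6, with its summit 96 bp upstream of the start site on the minus strand. RpS3A is the only member on chromosome 4, where 39 of 80 protein-coding genes (48.8%) had a summit, with a median signal of 624. Without chromosome 4, 19 of 38 members (50%) had one, beside 13.9% of all genes.

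RpS27A (FBgn0003942) encodes a protein of the beak that is made as a fusion to ubiquitin, and it had the next strongest signal, 295 in replicate 1, 321 in replicate 2 and 621 together. Its peak, chr2L:10408159-10408380, had its summit 73 bp upstream of the start site, a start that Ip259 shares on the same strand. RpS27 (FBgn0039300), for a zinc-binding protein of the platform, followed with 152, 137 and 282 in the same order. Its peak, chr3R:25247428-25247596, had its summit 8 bp downstream of the start. The divergent gene Nup37 starts 144 bp upstream of RpS27. RpS28b (FBgn0030136), for a head protein near the messenger exit, had 131, 116 and 245, with a peak at chrX:9554529-9554651 and its summit 24 bp upstream of the start. The replicates thus gave like values at each of these 4 genes, and the sequences under the summits are shown because these had the 4 highest signals in the list of both replicates together. In replicate 2 RpS21, described next, was above RpS28b.

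The windows run 5′ to 3′ on the strand of the gene, 50 bases to each side of the summit, ending at most 10 bases past the start site, in the RefSeq Release 6 genome (dm6). Capitals mark TATAAA, the TATA box letters.
RpS3A, chr4:67253-67353, minus strand: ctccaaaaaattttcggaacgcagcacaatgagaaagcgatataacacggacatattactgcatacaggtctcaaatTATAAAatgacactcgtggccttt
RpS27A, chr2L:10408229-10408329, plus strand: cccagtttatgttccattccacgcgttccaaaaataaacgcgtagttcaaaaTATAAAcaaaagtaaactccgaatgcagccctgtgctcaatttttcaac
RpS27, chr3R:25247505-25247556, minus strand: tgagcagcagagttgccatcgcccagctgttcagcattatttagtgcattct
RpS28b, chrX:9554549-9554632, plus strand: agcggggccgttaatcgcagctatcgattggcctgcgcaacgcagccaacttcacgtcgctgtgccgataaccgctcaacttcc
The TATA box letters stood in the windows of RpS3A and RpS27A, the pair with the highest signals, and in neither of the other 2 windows. Their centre lay 29 bases downstream of the summit at RpS3A and 4 at RpS27A. These summits were themselves 96 and 73 bp upstream of the start, and whether the letters act as a TATA box was not tested. Over all 20 summits, TATAAA lay on either strand within 100 bases of 5 (25%). It did so at 36.3% of the 1437 promoter summits, each the strongest conservative summit of a protein-coding gene. From 250 bases before to 50 after the start the letters were in 13 of the 20 members with a summit (65.0%), in 6 of the 19 without (31.6%) and in 46.4% of all genes with a summit, so the members' share was below the background in the former window and above it in the latter.

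The remaining members had lower and similar signals, 14 of them between 90 and 170. The fifth strongest and last above 200 was RpS21 (FBgn0015521), whose loss in flies is known to cause overgrowth of imaginal discs. Its signal was 113 in replicate 1, 123 in replicate 2 and 240 together, in a peak at chr2L:2856007-2856143 with its summit 10 bp downstream of the nearest start. CG3104 starts 292 bp away on the opposite strand. RpS4 (FBgn0011284), a body protein gene, had 100.6, 67.2 and 160.2 and a peak at chr3L:13041629-13041908 with its summit 13 bp downstream of the start. The replicates differed more there than at the stronger genes.

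Among the head proteins, RpS16 (FBgn0034743), whose tail reaches towards the transfer RNA, had a signal of 75.4 in replicate 1, 85.1 in replicate 2 and 154 together. Its peak was at chr2R:22605933-22606212, with the summit 54 bp upstream of the nearer of its 2 start sites and within the 5′ UTR of transcripts from the other. RpS20 (FBgn0019936) had 71.9, 69.2 and 134, with a peak at chr3R:20821847-20822126. Its summit was 194 bp upstream of RpS20 and 139 bp from the divergent gene CG17271. At no other member did the summit lie nearer to the start of another protein-coding gene than to its own. RpS25 (FBgn0086472), a protein that yeast and human ribosomes need for some viral internal entry sites, had 62.8, 65.3 and 126 with its peak at chr3R:11216211-11216490 and its summit 64 bp upstream of the start. CG4820 starts 248 bp upstream of RpS25 on the other strand.

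Other head members with a summit were close to each other. RpS12, which reports ribosomal protein gene loss to neighbouring cells in fly cell competition, had 54.5 in replicate 1, 61.8 in replicate 2 and 114 together. RpS18, which touches the large subunit, had 85.1, 36.7 and 112. RpS29, a zinc-binding protein, had 51.7, 42.6 and 101.4. Among the 20 members with a summit the replicates differed most at RpS18, by a ratio of 2.32, although it stood in both thresholded lists. In all, 12 of 19 head members had a conservative summit, among them RpS27A, RpS28b and the copies RpS5a, RpS10b and RpS19a, described below.

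Of the proteins of the body and platform, 8 of 20 had a conservative summit: RpS3A, RpS27, RpS21, RpS4, RpS15Aa, RpS23, RpS7 and RpS24. Over all protein-coding genes the share was 14.1%, and the counts of head and of body and platform were not tested against each other. RpS23, a protein of the decoding centre, had 70.9 in replicate 1, 58.6 in replicate 2 and 123 together. It was the member with more than 1 conservative summit within 500 bp, the stronger lying 1 bp downstream of the start. RpS7 had 62.7, 48.0 and 107, with the summit 7 bp downstream of the start. RpS24 had the lowest signals of the 20, at 25, 28.9 and 57.5. Its summit was 412 bp downstream of the start, in a coding exon of the gene itself, and its IDR of 0.00911 in the conservative ranked list was close to the limit of 0.01. In the ranked list of each replicate that peak had an IDR of 0.392 (replicate 1) and 0.233 (replicate 2). The other 19 members with a summit had it within 194 bp of the start and in the thresholded lists of both replicates.

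**Figure D2:**
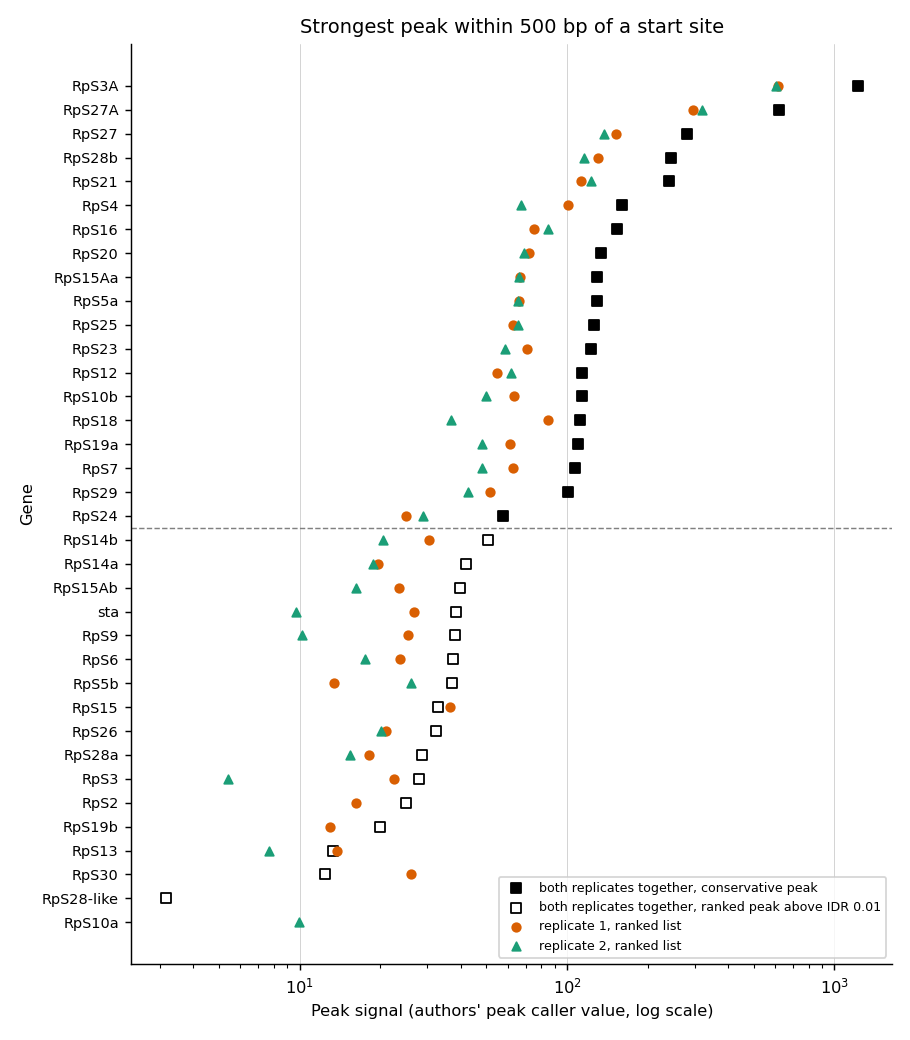
Signal of the strongest peak within 500 bp of a start site for 36 of the 39 genes (rows), on a logarithmic axis, in the list of both replicates together (squares; filled where the peak is in the conservative list) and in the ranked list of each replicate (circles and triangles). The genes above the dashed line have conservative peaks of 57.5 to 1223, and none of those under it exceeds 50.6 in the list of both replicates together.

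Over the 20 members with a summit, the median signal was 127, with quartiles of 111 and 180, beside a median of 102 (quartiles 71.1 and 170) over the 1975 protein-coding genes with a summit. The median was 158 for the large-subunit genes. In replicate 1 the medians were 70.9 for the members and 62.1 for all genes, and in replicate 2 they were 65.6 and 64.2. A total of 19 members lay above the median of all peaks of the conservative list (91.0) and 7 above its upper quartile (142). RpS3A and RpS27A stood far above the rest of the members. The members' median was below that of all genes with a summit where weaker peaks were left out: 129 against 146 at an IDR of 0.001, and 129 against 156 among peaks of above-median signal.

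The replicates' signals rose together across the members with a summit. Across the 20 genes Spearman's rho between the replicates' signals was 0.818 and Pearson's r of the log10 signals was 0.945. Without RpS3A and RpS27A they were 0.750 and 0.822 over 18 genes. Over the 1533 conservative peaks within 500 bp of any protein-coding start that overlapped a ranked peak of each replicate, they were 0.804 and 0.911. The IDR threshold keeps peaks whose ranks are repeated, so these values are partly fixed by the list and are descriptions of this pair of libraries. The ratio of replicate 1 to replicate 2 ran from 0.865 to 2.32 with a median of 1.03, and replicate 1 was higher at 13 members and replicate 2 at 7. In the 19 genes present in both thresholded lists, the replicates' strongest summits lay within 50 bp of each other at every gene, with a median distance of 20 bp, where 88.5% of the 1118 protein-coding genes in both lists did (median 15.0 bp).

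**Figure D3:**
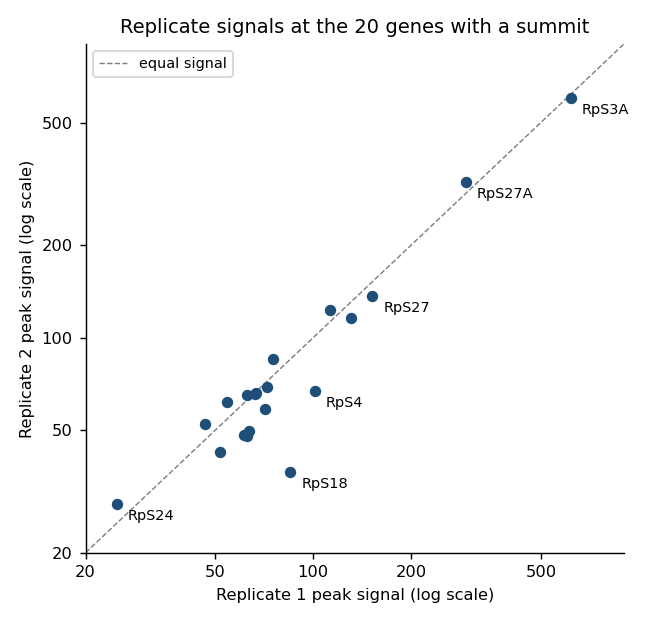
Peak signal in replicate 1 (horizontal) and replicate 2 (vertical), both on logarithmic axes, for the 20 small-subunit genes with a conservative summit; each point is a gene and the dashed line marks equal signal. Most points lie near the line from RpS24 (25 and 28.9) to RpS3A (617 and 602), and RpS18 (85.1 and 36.7) lies farthest from it.

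The summits lay close to the start sites. The median offset of the 20 members was 23.0 bp upstream (-23.0 bp), with quartiles of -56.5 and 3.25 bp, where all protein-coding genes with a summit had a median of -107 bp and the mitochondrial small-subunit genes -102 bp. Large-subunit genes had -39.0 bp. Within 50 bp of the start were 13 of the 20 members (65.0%), 27 of 39 large-subunit genes (69.2%) and 19.8% of all genes with a summit. Within 100 bp were 18 members (90%), the exceptions being RpS20 and RpS24, beside 42.7% of all genes. The summit lay upstream at 13 members (65.0%) and downstream at 7, while 87.5% of all genes with a summit had it upstream. Besides RpS24, the downstream members were RpS4, RpS21, RpS27, RpS7, RpS29 and RpS23, with summits 1 to 13 bp past the nearest annotated start. At RpS10b, RpS16 and RpS21 the nearest start was not the start whose letters are counted below, so their offsets depend on the start taken. In the annotation, 11 member summits lay outside the gene, 8 in its 5′ UTR and 1 in its coding exon, and none inside another gene.

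The closeness was also seen in each replicate, but the side of the start differed between them. In replicate 1 the median offset was -20.0 bp with 16 of 19 members within 50 bp (84.2%, all genes 22.9%), and in replicate 2 it was -23.0 bp with 14 of 19 (73.7%, all genes 16.1%). Upstream summits numbered 12 in replicate 1 (63.2%, all genes 84.8%) and 18 in replicate 2 (94.7%, all genes 91.5%). Of the replicates, only replicate 1 thus had a lower upstream share in the members than in all genes. RpS15Aa, for instance, changed side, with its summit 24 bp downstream in replicate 1 and 23 bp upstream in replicate 2. Differences of this size between summits are thus within what the replicates show. At the 11 members whose summit had no start of another protein-coding gene within 500 bp the median was -8.0 bp and 72.7% lay within 50 bp, with -85.5 bp and 23.8% over all such genes. At the 9 with a neighbouring start it was -44.0 bp and 55.6%, with -123 bp and 16.3% over all genes.

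**Figure D4:**
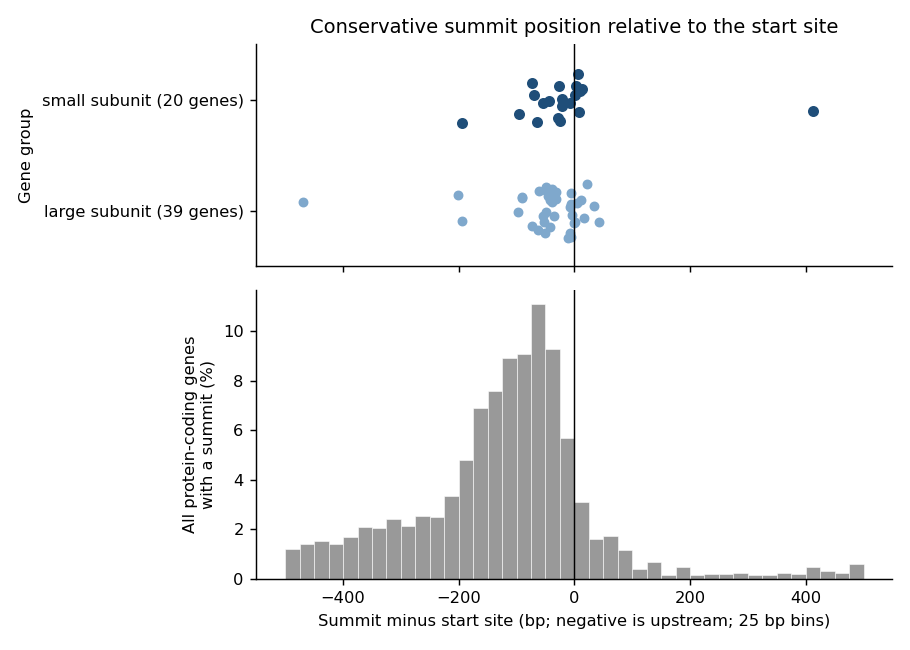
Position of the strongest conservative promoter summit relative to the nearest start site of the gene (horizontal axis, bp, negative upstream). The upper panel has a point per small-subunit gene (20) and per large-subunit gene (39), jittered vertically, and the lower panel the percentage of all 1975 protein-coding genes with a summit in bins of 25 bp. Most small-subunit points lie within 100 bp of the start, with RpS24 at 412 and RpS20 at -194, whereas the distribution of all genes extends farther upstream.

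The shares of members with a summit were close whether or not a divergent gene lay next to them. A protein-coding start on the opposite strand lay within 500 bp upstream of 15 members, of which 8 had a summit (53.3%), and of the other 24 members 12 did (50%). Over all protein-coding genes the shares were 25.7% with such a neighbour and 9.78% without. Among the members with both a summit and a divergent neighbour were RpS16, RpS18, RpS19a, RpS20, RpS21, RpS25 and RpS27. At these and at RpS27A the summit also lay within 500 bp of the start of CG4294, plu, Rok, CG17271, CG3104, CG4820, Nup37 and Ip259, respectively, and the peak lists do not tell which gene a peak belongs to. Starts of small nucleolar RNA genes lay within 500 bp of the summits at RpS12 (snoRNA:Me28S-A774b) and RpS29 (snoRNA:Psi18S-1275), and that of the non-coding RNA sisRNA:CR46364 at RpS27.

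Several small-subunit proteins are encoded by more than 1 gene, and these copies differed. RpS5a, for a head protein near the messenger exit, had a signal of 66.3 in replicate 1, 65.6 in replicate 2 and 129 together (chrX:17148145-17148424, summit 21 bp upstream). RpS5b, the copy known for its use in the ovary, had no thresholded peak in any list, and its strongest ranked peaks had signals of 13.5, 26.1 and 37.0. That of both replicates together lay 376 bp downstream of the start. RpS10b had 63.5, 49.6 and 114 (chrX:19597883-19598162, summit 8 bp upstream). At RpS10a no ranked peak lay within 500 bp in the list of both replicates or in replicate 1, and that of replicate 2 had a signal of 9.93.

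RpS15Aa, a body protein gene, had 66.8 in replicate 1, 66.1 in replicate 2 and 130 together (chrX:13337520-13337799, summit 22 bp upstream), and RpS15Ab had ranked peaks of 23.6, 16.2 and 39.7. RpS19a, whose human counterpart is mutated in Diamond-Blackfan anaemia, had 61.3, 48.2 and 110 (chrX:16637726-16638005, summit 28 bp upstream). RpS19b, the copy known from the germline, had a ranked peak of 13.0 in replicate 1, none within 500 bp in replicate 2 and 20 together. RpS28b was given above with 245, while RpS28a had 18.2, 15.4 and 28.6, and RpS28-like had 3.17 in the list of both replicates and nothing within 500 bp in either replicate. The RpS28a peaks had offsets of -430, -113 and -130 bp in the same order, so they need not be the same peak. In each of these 5 families the copy with a summit lay on the X chromosome and every other copy lay on an autosome and had none. Over all protein-coding genes, 12.9% on the X chromosome had a summit, beside 13.7% to 14.7% on arms 2L, 2R, 3L and 3R. A link between chromosome and summit was not tested. The sixth family, RpS14a and RpS14b, sits in tandem on the X chromosome and neither copy had a summit. Counted without 7 of the copies, 20 of 32 members (62.5%) had a summit. These 7 were picked after the values had been seen and all lack a summit, so the rise in the share was fixed by the choice.

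The promoter sequences of copies were as unlike each other as those of different members. From 250 bases before to 50 after the start, the aligned windows of the 7 copy pairs were 49% to 53.6% identical. The 734 other pairs of member promoters had 43.3% to 57.9%, with a median of 51.0%. The single-exon members, RpS10a, RpS15Ab and RpS28a, were all copies without a summit, but 16 of the 19 members without a summit had 2 or more exons. The share of single-exon genes with a summit was not counted over all protein-coding genes.

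The 19 members without a conservative summit mostly had weaker peaks in the ranked lists, above the IDR limit. RpS14b, for a platform protein, came closest in the list of both replicates together. Its signal there was 50.6 (30.6 in replicate 1 and 20.5 in replicate 2), 20 bp upstream of the start and with an IDR of 0.0223. RpS6, the substrate of S6 kinase, had 37.5 (23.8 and 17.5), 32 bp downstream and with an IDR of 0.0888. RpS14a had 42.0 (19.7 and 18.9), 6 bp upstream and with an IDR of 0.0896. The signals of these 3 were below the lowest of the 20 members with a summit in the list of both replicates together, whereas in replicate 1 that of RpS14b was above the 25 of RpS24.

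Of the further members described here with a ranked peak in that list, the IDR ran from 0.143 (RpS15Ab) to 0.880. The sta gene, which encodes a protein between head and body, had 38.4 together with 26.7 in replicate 1 and 9.73 in replicate 2, and RpS9, at the messenger entry, 38.2 with 25.5 and 10.2. In both genes replicate 1 was more than 2 times as high as replicate 2. RpS26, at the messenger exit, had 32.5 with 21.0 and 20.1. Their offsets were -150, 21 and -210 bp in the same order, so the values need not be of the same peak. RpS15 had 32.9 with 36.5 in replicate 1, RpS2 had 25.1 with 16.3, and RpS30, made in mammals as a fusion to a ubiquitin-like protein, 12.4 with 26. None of these 3 had a ranked peak within 500 bp in replicate 2. In replicate 1 the RpS15 peak had an IDR of 0.0103, just over the limit of 0.01. The replicate 1 signals of RpS15, RpS30, sta and RpS9 were also above the 25 of RpS24. RpS3, at the messenger entry, had 28 with 22.5 and 5.40, and RpS13 had 13.3 with 13.8 and 7.69. The RpS13 values came from offsets of -355, 311 and -246 bp, so they too need not be of the same peak.

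These weaker peaks also tended to lie at the start. In the ranked list of both replicates 11 of the 19 (57.9%) had a peak summit within 100 bp, with a median signal of 37.5, beside 32.1% of the 11993 protein-coding genes without a conservative summit, with a median of 24.6. In replicate 1 it was 12 of 19 (63.2%, all such genes 28.7%) and in replicate 2 it was 9 (47.4%, all such genes 24.5%). In replicate 2 the median signal of these peaks, 10.2, was below the 13.1 of all such genes, and in replicate 1 it was above, at 24.6 beside 17.1. The ranked lists hold many peaks that did not pass the threshold, and no member without a conservative summit was in a thresholded replicate list. The nearest conservative summit lay at least 884 bp away (RpS19b), with a median of 7372 bp. RpS24 at 412 bp and RpS19b at 884 bp were thus the members nearest the 500 bp limit on its inner and outer side.

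The DNA replication-related element TATCGATA, which is its own reverse complement, lay within 100 bases of the summit at 6 of the 20 members (30%), at 8 of 39 large-subunit summits (20.5%) and at 8.21% of the 1437 promoter summits. The members were RpS7, RpS10b, RpS12, RpS15Aa, RpS25 and RpS29. Of these, 4 had the whole element inside the window of 50 bases to each side, and their windows are printed to show its place relative to summit and start. The windows follow the genome and direction used above, end at most 25 bases past the start, and were chosen after the matches were known. Capitals mark TATCGATA and, in RpS25, also TTTATA, the reverse complement of TATAAA.
RpS25, chr3R:11216301-11216401, minus strand: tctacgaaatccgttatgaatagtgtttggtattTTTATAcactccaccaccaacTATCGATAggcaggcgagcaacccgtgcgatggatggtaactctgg
RpS12, chr3L:13023233-13023333, plus strand: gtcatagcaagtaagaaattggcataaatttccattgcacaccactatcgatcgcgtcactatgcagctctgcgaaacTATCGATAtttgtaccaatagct
RpS7, chr3R:30208996-30209063, minus strand: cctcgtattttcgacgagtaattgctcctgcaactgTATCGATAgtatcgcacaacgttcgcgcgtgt
RpS29, chr3R:9777994-9778066, plus strand: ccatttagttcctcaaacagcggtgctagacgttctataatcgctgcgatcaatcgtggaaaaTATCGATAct
The centre of the element lay 8 bases downstream of the summit at RpS25, 31 downstream at RpS12, 16 downstream at RpS29 and 10 upstream at RpS7. At RpS15Aa it was 49 bases upstream, so that the window cuts it, and at RpS10b 65 bases. The 6 inner letters ATCGAT, tried after the data had been seen, lay within 100 bases of 8 member summits (40%) and of 18.1% of promoter summits.

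The element was present in members with and without a summit. From 250 bases before to 50 after the start, TATCGATA was present in 13 of the 39 members (33.3%), in 15 of 54 large-subunit genes (27.8%) and in 9.23% of all protein-coding genes. It was in 8 of the 20 members with a summit (40%) and in 5 of the 19 without (26.3%), counts that differ by 3 genes. In these start windows the mean GC content was 38.2% in the members and 39.2% in all protein-coding genes. Within 100 bases of the summits it was 44.6% at the members, above the 37.3% of all promoter summits. That difference was not matched in the shares around summits.

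Other letters lay as often near member summits as near promoter summits of all genes, within a few summits. CACTG, on either strand, was within 100 bases of 8 member summits (40%) and of 47.4% of promoter summits. These letters came from an earlier search over the same peaks, so their share is no independent evidence. GGTCACACT, letters of the Ohler 1 or M1BP element, were at 1 member, RpS23 (5.0%), and at 4.38% of promoter summits. At RpS23 they overlap a CACTG, so that summit counts for both. The GAGA letters GAGAG were at 3 (15.0%) and 20.9%, and in the start windows at 4 of 39 members (10.3%) and 30.2% of all genes. Of the forms of the core promoter element Ohler 7, CATCNCTA was at 2 members (10%) and 8.14% of promoter summits, and CAGCNCTA at 1 (5.0%) and 2.92%. A match is a description of the letters in the window.

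The start sites of the members were rich in pyrimidines. Of the 8 bases from 2 before to 5 after the start used by most annotated transcripts, at least 7 were C or T in 13 of 39 members (33.3%), in 26 of 54 large-subunit genes (48.1%) and in 3.24% of all protein-coding genes. CTTT on the gene strand lay within 10 bases of the start in 19 members (48.7%), in 64.8% of large-subunit genes and in 9.12% of all genes. Of the members with at least 7 pyrimidines, 9 were among the 20 with a summit (45.0%) and 4 among the 19 without (21.1%), while CTTT was in 10 and 9. All 8 bases were pyrimidines in RpS15Aa alone.

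**Figure D5:**
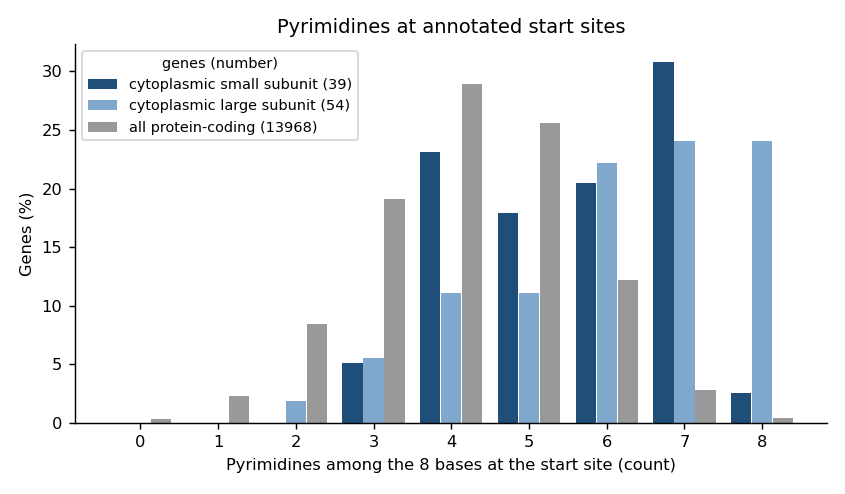
Number of pyrimidines among the 8 bases at the annotated start site (horizontal axis, count) and the percentage of genes with that number (vertical axis) for small-subunit genes (39), large-subunit genes (54) and all protein-coding genes (13968). The most frequent number is 7 in the small-subunit genes (30.8%), against 2.56% with 8, whereas in large-subunit genes 24.1% have 8.

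The start sites below, 20 bases each on the gene strand of the same genome, were chosen to show how alike starts with and without a summit can be. Those without a summit are all from the 4 of 19 such members with at least 7 pyrimidines, so they do not stand for the rest. Capitals mark the 8 bases counted.
RpS15Aa, chrX:13337629-13337648, minus strand, with a summit: ccttccgtTTCCCTTTcttt
RpS27A, chr2L:10408342-10408361, plus strand, with a summit: tgtgtgtgTGTTCTTTcttt
RpS25, chr3R:11216278-11216297, minus strand, with a summit: tttccgccCTCCATCTttct
RpS9, chr3L:9511522-9511541, minus strand, without a summit: ctaccttcACCCCTCTttct
RpS14b, chrX:7934888-7934907, plus strand, without a summit: gtgttgttTTTGCCTTcttt
RpS5b, chr3R:14901554-14901573, minus strand, without a summit: cttttaccGTTTCTTTttca
RpS3A, chr4:67198-67217, minus strand, with a summit: caacgtgaTTCGACCTtttc
RpS7, chr3R:30209011-30209030, minus strand, with a summit: ctgtatcgATAGTATCgcac
RpS15Aa has 8 pyrimidines among the capitals, and RpS27A, RpS25, RpS9, RpS14b and RpS5b have 7 each, although only the first 3 of these 6 had a summit. RpS3A, with the highest signal, has 6, and RpS7, whose annotated start is the last base of TATCGATA, has 4.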

How the data were processed

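The data were peak lists from ChIP-seq of 2 biological replicates, deposited per replicate and for both replicates together. The build is dm6, per the labels. Aligner and peak caller: not given in the sources used here. Both the signal of a peak and its summit position are the peak caller's values as the authors deposited them. The deposited score, which the authors scaled from the IDR to at most 1000, was read but not used for any value. The authors deposited the −log10 of the global IDR in the ranked lists, and it was converted to an IDR. Every row of the conservative and replicate thresholded lists was found in its ranked list at an IDR of 0.01 or below. Among the deposited columns, 6 of per-sample values were not mapped to a sample and not used. The depth is unknown, as read counts were not part of the lists.

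Genes and start sites came from Ensembl release 115, whose assembly is that of the files, and sequence from the RefSeq Release 6 genome. A gene took its strongest summit within 500 bp of any start, and the offset to the nearest start. In each replicate, a member's signal is that of the highest ranked peak overlapping its conservative peak, or, without one, of its strongest ranked peak within 500 bp. The latter need not be the same peak in each list. Promoter windows of copies were aligned globally over 300 bases. The members and lists were chosen with earlier results of these data known. All members were counted, but 3 are not reported by name here. The others could be named, with full values for the 10 of highest signal, both copies of duplicated genes and, for members without a summit, the strongest ranked peak, and other genes where they start within 500 bp of a member summit. Printed windows were shortened past the start site, since untranslated sequence was not to be shown. With 1 group of 2 replicates no test between samples was possible and no test over genes was run. The scoring was tested on simulated summits. Alternatives were the other series-level list, each replicate alone, windows of 200 and 1000 bp, IDR levels of 0.05 and 0.001, the most upstream start, peaks of above-median signal and shorter letter windows. Alternatives added after seeing the data left out second copies, chromosome 4 or summits near other genes, or searched ATCGAT. The software was Biopython 1.88, scipy 1.17.1, pandas 2.3.3, numpy 2.4.6 and matplotlib 3.10.9 under Python 3.11.15.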

Additional observations from a re-analysis of the deposited data

How the results depend on the processing

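The share of small-subunit genes with a summit stayed between 48.7% and 53.8% under 10 alternatives, each above the share of all genes, and was 62.5% without the 7 copies, where the choice fixed the rise. The large-subunit share was 57.4% to 68.5% with either replicate left out and 57.4% among peaks of above-median signal. The ratio of the members' median signal to that of all genes with a summit, 1.25, was 1.36 in the other series-level list, 1.02 to 1.14 with either replicate left out and 1.55 at an IDR of 0.05. It was below 1 at an IDR of 0.001 (0.881) and among peaks of above-median signal (0.828), both of which leave out weaker peaks. The cause of the other shifts was not tested. The median offset was -23.0 to -20.0 bp with either replicate left out, -14.5 bp with the most upstream start alone and -8.0 bp without summits near other genes, where all genes had -97.5 and -85.5 bp. TATCGATA lay within 50 bases of 20% of member summits, 20.5% of large-subunit summits and 4.52% of all promoter summits. Spearman's rho between the replicates was the same with the nearest ranked summit (0.818). No paired analysis was possible because the design has 1 group and no test. The depth of the libraries is unknown, so a member without a summit may be below what these lists can detect. The 20 members with a summit are too few for shares among them to be precise.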
